A study of Mus musculus with 12 samples.

Results

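The late step of mRNA loss in wild-type leukemic cells, 8 h against 4 h after transcription was blocked, was measured in 4 of the 12 libraries of the series. Of the 24589 genes in the deposited table, 11152 had at least 1 TPM in at least 2 of the 12 libraries and were tested. TPM is a gene's length-corrected share of all transcripts in a library, scaled to the same total in each.

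The cells were NRAS/AE9a leukemic cells of the mouse, labelled as AML (acute myeloid leukemia) cells and named after an NRAS oncogene and AML1-ETO9a, a truncated form of the AML1-ETO fusion protein. The groups used here, with 2 libraries each, were WT cells after 8 h of actinomycin D and WT cells after 4 h. WT cells labelled 0 h and Tet2 KO cells after 8 h and after 4 h served for comparison. Actinomycin D was given at 5 µg/ml, and all groups grew with SCF, IL-3 and IL-6 under selection with G418 and puromycin. No further line of WT or of KO cells is labelled. Whether both libraries of a group stem from different cultures is not labelled either, and each p-value then reflects the scatter of these libraries alone, which may be technical. The comparison asks which mRNAs were still being lost after the first 4 h, and which persisted.

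Actinomycin D binds DNA and stops RNA polymerases, so that the mRNA level then follows decay alone. An mRNA usually decays by shortening of its poly(A) tail, removal of the cap and digestion from the ends. Sequences in the 3′ untranslated region (3′ UTR), the proteins bound there and the codons of the message set how fast this goes. In myeloid cells, mRNAs of immediate early genes are known for fast decay and mRNAs of ribosomal proteins and lysosomal enzymes for slow decay. The values here are shares of what remains, and no added RNA standard is named, so an mRNA that decays slower than the average message climbs in TPM.

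Most transcripts lost share in this step. In WT cells, 6884 genes (61.7% of those tested) passed an adjusted p of 0.05 between 8 h and 4 h (limma on log2(TPM + 1), Benjamini-Hochberg over all 11152 genes). Of these, 6115 were lower (54.8%) and 769 higher (6.9%) at 8 h. The median gene changed by -0.43 on the log2 scale, which leaves 74.3% of its 4 h share on the TPM + 1 scale. The split depends on that shift: after median-ratio scaling, which brought the median to 0.06, 2506 genes were lower and 3219 higher. Relative to the median gene, 3001 genes fell further (26.9%) and 2337 fell less or gained (21% of those tested). A fall by at least 1 on the log2 scale was called for 1792 genes and by at least 2 for 92, while 145 rose by at least 1 and 13 by at least 2. In the preceding step, 4 h against 0 h, the median was -0.81, with 7916 genes lower (71%) and 755 higher (6.77%). Both steps use the 4 h libraries, so the difference between them was tested as a contrast of its own, each step taken relative to its median gene. There, 5531 genes passed (49.6%): 2794 fell more in the late step than in the early one (25.1%) and 2737 fell less (24.5%).

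**Figure D1:**
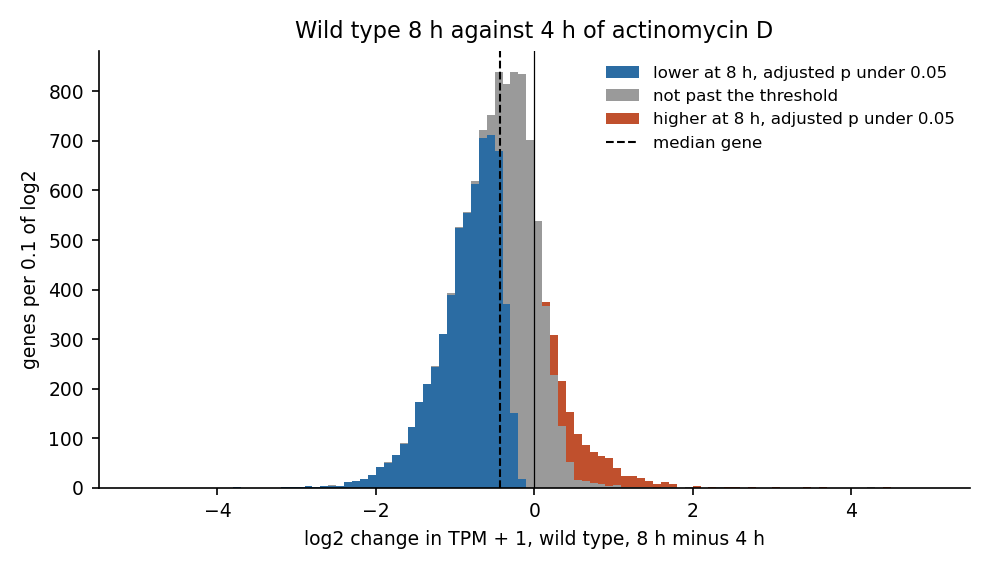
Histogram of the log2 change in TPM + 1 between WT libraries at 8 h and at 4 h over 11152 genes, in steps of 0.1. Blue bars are the 6115 genes lower and red bars the 769 genes higher at an adjusted p under 0.05, grey bars did not pass, and the dashed line at -0.43 is the median gene, with most of the distribution left of 0.

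The number of genes with at least 1 TPM was 9093 and 9246 in the WT libraries at 8 h, against 9708 and 9757 at 4 h. Across genes, replicate libraries had a Pearson r of 0.991 to 0.994. All 10 myeloid and leukemia markers checked were tested, and they did not move together. The lysozyme gene Lyz2 had 55268 and 59978 TPM at 8 h against 33573 and 32541 at 4 h. The leukocyte antigen Ptprc had 91.2 and 108 TPM at 8 h against 101 and 94.6 at 4 h. Mpo, Elane, Spi1 and Csf3r fell, with log2 changes of -3.12, -2.84, -1.59 and -1.51, while Kit did not pass (-0.26). The values of the remaining markers, Cebpa, Cd34 and Itgam, are not given here. Of 12 B cell markers none was expressed enough to be tested, and their summed level was 0.84 and 1.48 TPM at 8 h against 1.85 and 0.84 at 4 h. Of 20 T and NK cell markers 2 were tested, with a sum of 16.4 and 18.8 TPM at 8 h against 11.8 and 13.1 at 4 h: Il7r, the interleukin 7 receptor, was higher by a log2 change of 0.95 and Nkg7, a cytotoxic granule protein, lower by -0.96. The Nkg7 call was lost after median-ratio scaling and without WT 4 h replicate 2 or WT 8 h replicate 2. In these bulk libraries, fewer cells of a type and less RNA per cell cannot be told apart.

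Some mRNAs of azurophil granules, the first granules that granulocyte precursors make, lost most of their share in this step and little before it. They were chosen for small p-values or large changes, and no list of azurophil granule genes alone was counted. Prtn3, which encodes proteinase 3, had 516 and 537 TPM at 0 h, then 484 and 506 at 4 h, then 60.5 and 62.8 at 8 h in WT cells. The 0 h and 4 h libraries lay close together and both 8 h libraries far below, at 12.5% of the 4 h mean. The log2 change of Prtn3 was -2.98 ± 0.06 at 8 h against 4 h (SE, n = 2 against 2, limma adjusted p = 3.55e-11), beside -0.09 ± 0.06 at 4 h against 0 h (adjusted p = 0.229).

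Mpo, the myeloperoxidase of the same granules, had 28.5 and 33.5 TPM at 0 h, then 25.95 and 24.1 at 4 h, then 1.90 and 2.07 at 8 h. Elane, neutrophil elastase, had 89.0 and 96.25 TPM at 0 h, then 77.5 and 80.4 at 4 h, then 10.4 and 9.94 at 8 h. Ctsg, the protease cathepsin G, had 302 and 306 TPM at 8 h against 1426 and 1351 at 4 h. In each of these genes both 8 h libraries lay below both 4 h libraries, which the rule for naming Mpo and Elane required. The groups of 8846 tested genes (79.3%) did not overlap, in one direction or the other. The log2 changes were -3.12 ± 0.12 for Mpo, -2.84 ± 0.12 for Elane and -2.19 ± 0.07 for Ctsg (adjusted p between 5.56e-10 and 5.75e-09 by limma). Ms4a3, a membrane protein of granulocyte and monocyte precursors, had 138 and 139 TPM at 8 h against 594 and 604 at 4 h, a change of -2.10 ± 0.06.

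The late change exceeded the early one in all 5 of these genes, relative to the median gene of each step: by -3.24 ± 0.11 in Prtn3, -3.18 ± 0.20 in Mpo, -2.96 ± 0.21 in Elane, -2.35 ± 0.10 in Ms4a3 and -2.28 ± 0.11 in Ctsg (limma adjusted p between 1.54e-08 and 2.23e-06). Prtn3, Mpo and Elane held 3 of the 5 most negative values of this contrast among genes with a mean of at least 5 TPM over the 6 WT libraries. The other two were Hmgb3, a chromatin protein of progenitors, at -2.55 ± 0.23, and Rpl30, a ribosomal protein gene, at -2.97 ± 0.83. Rpl30 is uncertain: its values spread widely, with 31.2 and 10.85 TPM at 8 h against 52.7 and 77.0 at 4 h, and its late call was lost after median-ratio scaling and without WT 4 h replicate 2 or WT 8 h replicate 2. Its difference between the steps did not pass with no filter or without WT 4 h replicate 2. Of 30 tested granule genes of all stages, 19 were lower and 5 higher at 8 h (median -0.53), 13 lower and 9 higher relative to the median gene, and 10 lower and 12 higher after median-ratio scaling. Among all tested genes, 54.8% were lower and 6.9% higher, with a median of -0.43. The antimicrobial peptide gene Camp of later granules fell by 1.48 ± 0.15, and Lyz2 rose by 0.80 ± 0.06.

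**Figure D2:**
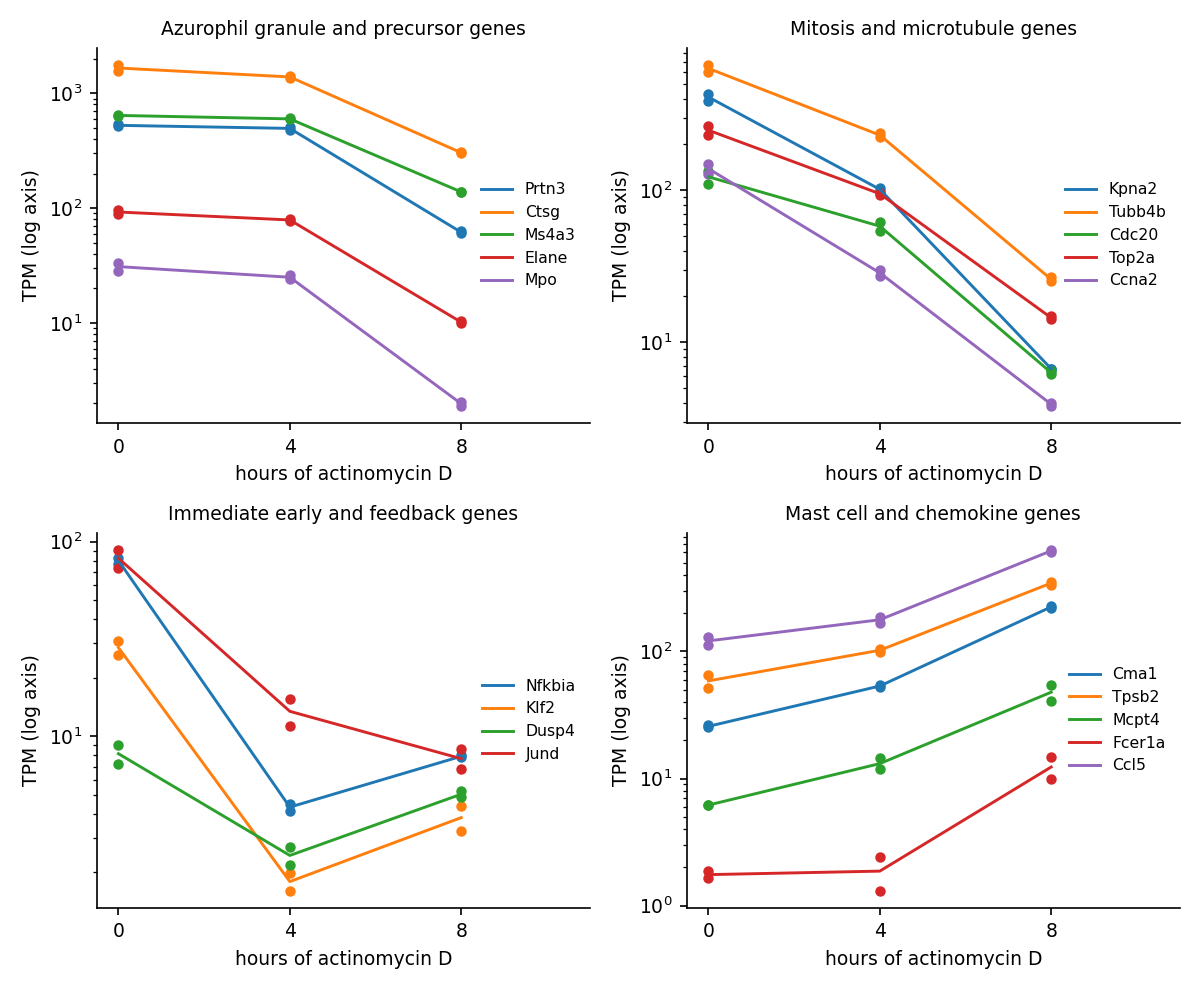
TPM in WT libraries on a log axis against hours of actinomycin D, 1 panel per gene group, with each dot a library and each line through the mean of 2 libraries. Prtn3, Ctsg, Ms4a3, Elane and Mpo run nearly level to 4 h and then drop, mitosis and microtubule genes drop in both steps, Nfkbia, Klf2 and Dusp4 reach their lowest share at 4 h while Jund is lowest at 8 h, and the mast cell and chemokine genes are highest at 8 h.

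Genes of mitosis lost share as a whole: all 41 tested were lower at 8 h, with a median of -1.52, and 39 were lower relative to the median gene. The deepest loss among genes with a mean of at least 5 TPM over the 4 WT libraries at 4 h and 8 h was that of Kpna2, an importin alpha that carries proteins into the nucleus and is high in dividing cells. It had 387 and 432 TPM at 0 h, then 104 and 98.5 at 4 h, then 6.68 in both libraries at 8 h, so 6.6% of the 4 h level was left (log2 change -3.73 ± 0.08, adjusted p = 3.55e-11 by limma). Cdc20, the activator of the anaphase-promoting complex, had 6.15 and 6.45 TPM at 8 h against 53.9 and 61.95 at 4 h. Top2a, the topoisomerase that untangles chromosomes, had 14.2 and 14.8 TPM at 8 h against 96.1 and 93.2 at 4 h. Their log2 changes were -3.01 ± 0.11 and -2.63 ± 0.08. Ccna2, cyclin A2, fell by 2.59 ± 0.11, Cdca8 of the chromosomal passenger complex by 2.17 ± 0.07, and Cdk1, the mitotic kinase, by 2.00 ± 0.08. In 24 mitosis genes the late loss exceeded the early one and in 7 the early loss was the larger.

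Tubulin mRNAs, the messages of the microtubule subunits, were among the deepest losses too. Tubb4b had 25.1 and 26.7 TPM at 8 h, against 236 and 224 at 4 h. Tuba4a had 25.3 and 31.0 TPM at 8 h, against 221 and 198 at 4 h, and Tuba8 had 5.25 and 3.98, against 33.7 and 32.2. The changes were -3.10 ± 0.07 for Tubb4b, -2.86 ± 0.10 for Tuba4a and -2.60 ± 0.11 for Tuba8. Of the 10 tested alpha and beta tubulin genes, a set chosen after its values were seen, 9 were lower, by -3.10 to -1.14, and Tubb4a, at 1.09 TPM or less at both times, did not pass. The tubulins are close paralogs, so reads may be split between them and single values are uncertain.

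Replication followed: 50 of 51 tested replication and S-phase genes were lower (median -1.17), and 42 relative to the median gene. Mcm6, a subunit of the replicative helicase, had 21.4 and 23.3 TPM at 8 h, against 114 and 104 at 4 h (-2.24 ± 0.09), and Gmnn, the licensing inhibitor geminin, 6.38 and 8.33 against 46.6 and 45.7 (-2.51 ± 0.12). Among 14 tested genes of DNA methylation and its removal, 9 were lower and none higher (median -0.65). Relative to the median gene 6 were lower and 1 higher, and after median-ratio scaling 5 and 2. Of all tested genes, 54.8% were lower and 6.9% higher, with a median of -0.43. Dnmt1, the maintenance methyltransferase, stood at -1.91 ± 0.08.

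Karyopherins, aminoacyl-tRNA synthetases, nucleolar genes, splicing factors and genes of mRNA decay fell in most of their members. All 29 karyopherins were lower (median -0.94, 23 relative to the median gene), as were all 24 aminoacyl-tRNA synthetase genes (median -1.22, 21 relative), among them Rars, the arginine enzyme, at -1.94 ± 0.10. Of 53 nucleolar genes of ribosome assembly 49 were lower (median -1.16, 46 relative), with Nolc1, a nucleolar phosphoprotein, at -2.01 ± 0.09 and Npm1, nucleophosmin, at -1.40 ± 0.07. Of 78 splicing factors 71 were lower (median -1.06, 60 relative), led by Srsf1 at -2.03 ± 0.09. Of 56 genes of mRNA decay itself 51 were lower (median -0.81, 33 relative), with the exosome subunit Exosc8 at -2.31 ± 0.11. No member of these 5 lists passed as higher, though 2 nucleolar, 1 splicing and 2 decay genes did so relative to the median gene.

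Polr2b, the second largest subunit of RNA polymerase II, had 3.38 and 3.79 TPM at 8 h, against 31.5 and 28.5 at 4 h, a change of -2.76 ± 0.12. It led 85 genes of Mediator, polymerase II and general transcription factors, of which 67 were lower and none higher (median -0.75, 38 lower and 9 higher relative to the median gene). One member passed as higher without WT 8 h replicate 2, KO 0 h replicate 1 or KO 0 h replicate 2. Of 65 initiation and elongation factors of translation 56 were lower and 1 higher (median -1.0, 39 and 5 relative, 36 and 15 after median-ratio scaling), with the helicases Eif4a3 at -2.09 ± 0.08 and Eif4a1 at -1.33 ± 0.06. The 1 higher call was lost without WT 4 h replicate 1 or WT 8 h replicate 2. Rbmxl1, an RNA-binding protein gene with close copies, was lower by -2.69 ± 0.10, an uncertain value for that reason. Vapa, a tether of endoplasmic reticulum membranes, had 4.14 and 4.49 TPM at 8 h against 44.9 and 41.0 at 4 h (-3.05 ± 0.09).

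Chaperone and proteasome genes were mostly lower. Of 46 chaperone genes 38 were lower and 1 higher (median -0.95, 30 and 5 relative to the median gene), and the higher call was lost without WT 4 h replicate 1, WT 4 h replicate 2 or WT 8 h replicate 2. Hspa8, the constitutive HSP70, had 3007 and 3368 TPM at 0 h, then 392 and 360 at 4 h, then 75.03 and 83.5 at 8 h. Its early loss of -3.08 ± 0.08 was larger than its late loss of -2.23 ± 0.08 (difference 0.50 ± 0.13 relative to the median gene, limma adjusted p = 0.00737). Ptges3, the HSP90 cochaperone p23, fell by 2.89 ± 0.13, and the chaperonin subunit Cct4 by 2.16 ± 0.07. That chaperonin folds tubulin and actin. All 7 tested genes with a Cct symbol, a set chosen after its values were seen, were lower. Subunits of the chaperonin under other symbols were not counted. Of 47 proteasome genes 42 were lower and none higher (median -0.86, 34 and 5 relative), with the lid subunit Psmd7 at -2.28 ± 0.10.

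Transcription factors of blood cells split by the step in which they fell. The shares over all tested genes were 54.8% lower and 6.9% higher at 8 h, with a median of -0.43. Of 31 tested factors of blood cells, 20 were lower and 1 higher (median -0.67, 15 and 4 relative to the median gene). The higher call was lost without WT 4 h replicate 2, WT 8 h replicate 2, KO 0 h replicate 1 or KO 0 h replicate 2, and a second gene passed without KO 8 h replicate 1 or KO 8 h replicate 2. Spi1, the myeloid factor PU.1, had 353 and 395 TPM at 0 h, then 149 and 143 at 4 h, then 45.7 and 49.9 at 8 h (-1.59 ± 0.08). Myb, which keeps progenitors dividing, had 77.2 and 89.1 TPM at 0 h, then 15.1 and 13.4 at 4 h, then 5.17 and 5.04 at 8 h (-1.31 ± 0.10). Erg, an ETS factor of stem cells, had 0.88 and 0.90 TPM at 8 h, against 5.88 and 4.61 at 4 h (-1.72 ± 0.14). In 18 of the 31 genes the early loss was the larger and in 4 the late one, Spi1 among the 4. Among all tested genes the early loss was the larger in 24.5% and the late one in 25.1%.

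Most immediate early and feedback genes, whose mRNAs are known for fast decay, did not pass in this step. Of 49 tested, 10 were lower, 6 higher and 33 did not pass, with a median of -0.02, while relative to the median gene none was lower and 26 were higher, and after median-ratio scaling none and 35. Nfkbia, the inhibitor of NF-kappaB, had 77.1 and 82.8 TPM at 0 h, then 4.15 and 4.51 at 4 h, then 7.80 and 8.00 at 8 h. Between 4 h and 8 h it rose (0.74 ± 0.13, limma adjusted p = 0.000299). Klf2, a zinc finger factor, had 26.2 and 30.9 TPM at 0 h, then 1.98 and 1.61 at 4 h, then 3.28 and 4.37 at 8 h (0.78 ± 0.17), and the phosphatase gene Dusp4 rose by 0.81 ± 0.16. The AP-1 member Jund was lower at 8 h, with 8.57 and 6.79 TPM against 11.35 and 15.5 at 4 h (-0.73 ± 0.15), a call lost after median-ratio scaling (-0.11). In 34 of the 49 the early loss was the larger, and in 1 the late one. For Nfkbia the difference between the steps was 4.32 ± 0.22 (limma adjusted p = 3.81e-07), next after 4 less certain genes described further on.

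The Zfp zinc finger genes, transcription factors with short-lived mRNAs, are a larger list: of 266 tested, 80 were lower and none higher (median -0.22). Over all tested genes 54.8% were lower and 6.9% higher, with a median of -0.43. The direction turned relative to the median gene, with 13 lower and 53 higher, and after median-ratio scaling, with 15 and 34. Leaving out any 1 of the 4 WT libraries at 4 h and 8 h gave 2 or 3 higher calls, 3 of them without WT 8 h replicate 1. In 153 the early loss was the larger and in 3 the late one, and 124 had a 4 h mean under 1 TPM, where log2(TPM + 1) compresses any change. Among 70 histone-modifying enzymes 51 were lower and 1 higher (median -0.55, 26 and 1 relative, 23 and 12 after median-ratio scaling), with the deacetylase Hdac2 at -1.41 ± 0.11, and the higher call was lost without WT 4 h replicate 1 or WT 8 h replicate 2.

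**Figure D3:**
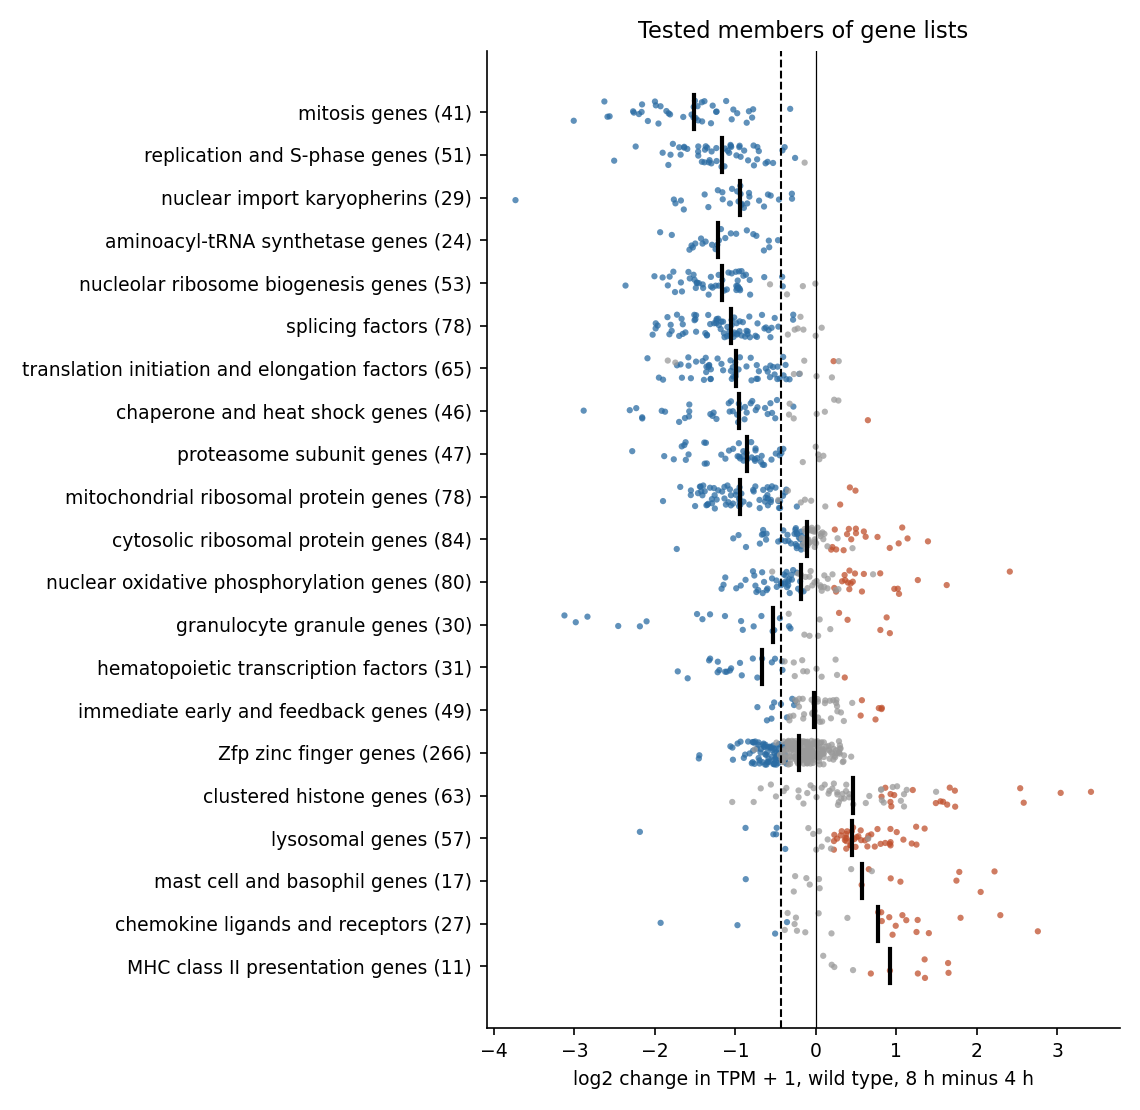
Log2 change in TPM + 1 between WT libraries at 8 h and at 4 h for each tested member of 21 gene lists, with the number tested in brackets. Blue dots were lower and red dots higher at an adjusted p under 0.05, grey dots did not pass, black bars are list medians and the dashed line is the median of all tested genes at -0.43. Mitosis genes lie leftmost, with a median of -1.52, and the MHC class II genes rightmost, with a median of 0.92.

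Genes of the lysosome gained share. Of 57 tested, 43 were higher and 6 lower at 8 h, with a median of 0.45, and 48 were higher relative to the median gene. Ctsb, the protease cathepsin B, had 369 and 396 TPM at 0 h, then 549 and 526 at 4 h, then 1239 and 1321 at 8 h (1.25 ± 0.06, adjusted p = 1.26e-08 by limma). Ctss, cathepsin S, had 1467 and 1570 TPM at 8 h against 618 and 571 at 4 h, and Ctsd, cathepsin D, had 9998 and 10547 against 4553 and 4444. Both were higher at 8 h, by 1.35 ± 0.07 and 1.19 ± 0.06. Of the 6 lower members 5 encode subunits of the V-type proton pump, which acidifies the lysosome, and the other is Ctsg. The ferritin genes Ftl1 and Fth1, which store iron, rose by 1.04 ± 0.05 and 1.32 ± 0.06. Among 26 genes of iron handling and the antioxidant response, 13 were lower and 6 higher (median -0.20), 5 lower and 13 higher relative to the median gene and 4 and 18 after median-ratio scaling, with glutathione reductase Gsr at -1.73 ± 0.09.

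Antigen presentation and secreted chemokines showed the same direction. Of 11 MHC class II presentation genes 7 were higher and none lower (median 0.92, 10 higher relative to the median gene). The invariant chain gene Cd74 had 1514 and 1568 TPM at 8 h, against 653 and 627 at 4 h (1.27 ± 0.07), and H2-Ab1, a class II beta chain, 107 and 101 against 33.2 and 32.1 (1.64 ± 0.14). Of 27 chemokine genes 14 were higher and 4 lower (median 0.77, 15 and 2 relative). Ccl5 had 605 and 631 TPM at 8 h, against 187 and 168 at 4 h (1.80 ± 0.12), and Ccl12 had 34.9 and 39.75, against 8.10 and 5.71 (2.29 ± 0.24). Ccl17 had 11.2 and 11.3 TPM at 8 h, against 0.32 and 1.5 at 4 h (2.76 ± 0.42). Ccl6 rose by 1.26 ± 0.05. Among transcripts of at least 1000 nt alone, 8 chemokine genes were higher. The receptor Cxcr2 of the list, which draws neutrophils, was lower by -1.93 ± 0.13. Wfdc17, a small secreted inhibitor of myeloid cells, had 1107 and 1126 TPM at 8 h against 259 and 292 at 4 h (2.02 ± 0.13).

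Mast cell proteases held 4 of the 15 largest gains among genes with a mean of at least 5 TPM. Cma1, a chymase, had 25.3 and 26.2 TPM at 0 h, then 52.6 and 54.2 at 4 h, then 219 and 229 at 8 h (2.05 ± 0.13). Tpsb2, a tryptase, had 335 and 354 TPM at 8 h against 105 and 98.9 at 4 h (1.75 ± 0.13). Mcpt4, another chymase, had 40.9 and 54.65 TPM at 8 h against 14.4 and 11.8 (1.78 ± 0.17), and the tryptase Tpsg1 rose by 1.67 ± 0.22. Fcer1a, the alpha chain of the IgE receptor, had 9.93 and 14.7 TPM at 8 h against 1.31 and 2.43 (2.22 ± 0.22). Of 17 mast cell and basophil genes 8 were higher and 1 lower (median 0.57, 12 and 1 relative to the median gene), the lower one being the histidine decarboxylase gene Hdc (-0.87 ± 0.07). The summed level of this list was 4815 and 5557 TPM at 8 h, against 3611 and 3329 at 4 h. Cpa3, a carboxypeptidase of mast cell granules, made up 2260 and 2648 TPM of it at 8 h, against 1337 and 1234 at 4 h (0.93 ± 0.08). Kit did not pass (-0.26 ± 0.13), and Il4 was listed at 0 in 3 of the 4 libraries. Whether mast-like cells took a larger part of the 8 h libraries was not tested.

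Of 8 megakaryocyte markers 5 were higher and none lower (median 0.52, 7 higher relative to the median gene), with a summed level of 273 and 307 TPM at 8 h against 121.5 and 122.5 at 4 h, and Pf4, platelet factor 4, at 1.403 ± 0.135. The erythroid markers called higher, Hbb-b2 and Hbb-bt, had identical values (0.74 ± 0.09) and may be 1 measurement under 2 symbols. With these counted as 2, of 6 tested erythroid markers 2 were higher and 2 lower (median 0.30, none and 4 relative, none lower and 5 higher after median-ratio scaling), with sums of 309 and 296 TPM at 8 h against 219 and 228 at 4 h. Only 1 was lower without WT 4 h replicate 2, WT 8 h replicate 1 or WT 8 h replicate 2. Of 6 tested stromal and endothelial markers 3 were lower and none higher (median -0.40, 2 and 2 relative), with sums of 1455 and 1637 TPM against 1581 and 1490, and 1 passed as higher without WT 8 h replicate 1. The part of these cell types in the results was not tested.

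Short messages stood apart from the pattern of loss. Of 84 cytosolic ribosomal protein genes 32 were lower and 18 higher (median -0.11), while relative to the median gene 8 were lower and 64 higher, and after median-ratio scaling 2 and 73. In 70 the late change was more negative than the early one and in none less so. Rps6 and Rpl3, of the small and the large ribosomal subunit, were lower by -0.65 ± 0.05 and -0.70 ± 0.06, while after median-ratio scaling Rps6 stood at 0.03 and Rpl3 at -0.01, which did not pass. Of 80 nuclear oxidative phosphorylation genes 39 were lower and 20 higher (median -0.19, 13 and 42 relative, 4 and 57 after median-ratio scaling). With a trend on transcript length removed, an alternative chosen after seeing the data, 59 ribosomal protein genes were lower and 9 higher, and 54 oxidative phosphorylation genes lower and 7 higher. Of 78 mitochondrial ribosomal protein genes 69 were lower and 3 higher (median -0.95, 47 and 6 relative), and 1 was higher without any 1 of the 4 WT libraries at 4 h and 8 h. Cox7a1, a small subunit of cytochrome c oxidase, had 26.5 and 29.8 TPM at 8 h, against 2.91 and 6.68 at 4 h (2.41 ± 0.42).

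Clustered histone genes, whose messages end in a stem-loop in place of a poly(A) tail, had 18 higher and none lower of 63 tested (median 0.46, 27 higher relative to the median gene). Without 1 library, between 1 and 3 passed as lower: 3 without WT 8 h replicate 1, 2 without WT 4 h replicate 2, and likewise without a KO 8 h library, and 1 without a KO 4 h library. With the trend on length removed, 15 were higher and 6 lower. Hist1h1c, a linker histone, rose by 0.86 ± 0.08. Hist1h4m (3.42 ± 0.97), Hist1h2ap (3.04 ± 0.89) and Hist2h3c2 (2.54 ± 0.65) were each listed at 0 in 1 of the 2 libraries at 4 h. Hist1h4m had 50.0 and 49.9 TPM at 8 h, with 21.7 in the other 4 h library. Its call was lost when the 2 groups were fitted on their own, and that of Hist1h2ap with no filter and without WT 4 h replicate 2 or WT 8 h replicate 2. They belong to multicopy families in libraries made with an mRNA kit, and their values are uncertain. In the contrast of the late with the early step, Hist1h2ap (5.26 ± 1.53), Hist2h4 (4.95 ± 1.08), Pet117 (4.95 ± 1.78) and Hist2h3c2 (4.46 ± 1.12) had the 4 largest positive values among genes with a mean of at least 5 TPM over the 6 WT libraries. Pet117, an assembly factor gene of cytochrome c oxidase, was listed at 0 in 1 library at 8 h and 1 at 4 h.

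The largest gain among genes with a mean of at least 5 TPM was that of Rpph1, the RNA of ribonuclease P and itself no mRNA. It had 209 and 136 TPM at 0 h, then 482 and 441 at 4 h, then 7215 and 4663 at 8 h (3.65 ± 0.20). Malat1, a nuclear noncoding RNA, had 926 and 999 TPM at 8 h, against 439 and 430 at 4 h (1.14 ± 0.08). In 22 snoRNA host and long noncoding RNAs 6 were lower and 7 higher (median -0.06, none and 8 relative, none and 9 after median-ratio scaling). Toporsos, an antisense RNA, was higher by 1.79 ± 0.44 on values of 238 and 105 TPM at 8 h against 30.1 and 66.6 at 4 h.

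Surface receptors differed from one another in this step, in which 54.8% of all tested genes were lower and 6.9% higher. Of 31 myeloid cytokine and Fc receptor genes 11 were lower and 6 higher (median -0.04, 3 and 17 relative to the median gene, 3 and 23 after median-ratio scaling). Csf3r, the G-CSF receptor, had 15.45 and 16.25 TPM at 8 h, against 46.3 and 47.7 at 4 h (-1.51 ± 0.09). Ifngr1, a chain of the interferon gamma receptor, had 3.87 and 4.17 TPM, against 16.02 and 14.99 (-1.72 ± 0.10), and Fcer1g, the shared gamma chain of Fc receptors, rose by 0.90 ± 0.06. Of 43 homing and adhesion genes 18 were lower and 11 higher (median -0.16, 8 and 22 relative, 4 and 29 after median-ratio scaling). Cd9, a tetraspanin, had 611 and 673 TPM at 8 h against 269 and 263 at 4 h (1.27 ± 0.08). Of 22 stem cell genes 8 were lower and 2 higher (median -0.27, 3 and 7 relative, 4 and 7 after median-ratio scaling). The 2 higher genes were Ly6a, which encodes the stem cell antigen Sca-1, with 808 and 835 TPM at 8 h against 265 and 282 at 4 h (1.58 ± 0.07), and Procr, the protein C receptor (1.08 ± 0.13). Thy1, another surface antigen of that list, had 8.90 and 8.96 TPM at 8 h against 35.8 and 33.8 at 4 h (-1.85 ± 0.09). Mrgpra2b, an orphan receptor with close paralogs, was lower by -2.70 ± 0.17, and its value is uncertain for that reason.

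Tet2 and Cxcr4 lost share at this step, and Tspan13 did not pass. Tet2, the gene named as deleted in the KO cells, had 5.66 and 6.46 TPM in WT cells at 8 h, against 10.6 and 10.2 at 4 h (-0.69 ± 0.13, adjusted p = 0.000453 by limma). After median-ratio scaling Tet2 stood at -0.09 and did not pass. Cxcr4, the receptor that holds leukemic cells in the marrow, had 5.44 and 7.06 TPM at 8 h, against 13.5 and 12.8 at 4 h (-0.97 ± 0.14), after a larger early loss of -2.95 ± 0.14. Ybx1, a reader of 5-methylcytosine in RNA, had 918 and 982 TPM at 8 h, against 1144 and 1095 at 4 h (-0.24 ± 0.08, adjusted p = 0.0262). After median-ratio scaling Ybx1 stood at 0.45. Its call was also lost with no filter, by limma without the trend, and without WT 4 h replicate 1, WT 4 h replicate 2 or WT 8 h replicate 1. Tspan13, a tetraspanin, had 1.38 and 2.95 TPM at 8 h, against 2.52 and 2.70 at 4 h, and did not pass (-0.24 ± 0.21, adjusted p = 0.346), with a value of 0.13 without WT 8 h replicate 1 and one of -0.60, past the threshold, without WT 8 h replicate 2 (adjusted p = 0.0123). Of 15 genes that write, read or erase 5-methylcytosine in RNA 11 were lower and none higher (median -0.85, 7 lower relative to the median gene). Alyref, an mRNA export factor and reader of the mark, had 16.4 and 15.6 TPM at 8 h against 92.6 and 82.5 at 4 h (-2.38 ± 0.10), and Nsun2, a methyltransferase, was lower by -0.88 ± 0.07. Of 19 m6A genes 13 were lower and none higher (median -0.59, 7 and 2 relative), with the methyltransferase Mettl16 at -1.62 ± 0.12. Both lists stand beside 54.8% lower and 6.9% higher over all tested genes, with a median of -0.43.

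Several lists of metabolism and regulation were counted as well. Over all tested genes 54.8% were lower and 6.9% higher, with a median of -0.43, and the Rab GTPase list below was close to these values. Relative to the median gene 26.9% of all tested genes were lower and 21% higher. The same shares apply to the lists of the next paragraph. Of 37 cholesterol and fatty acid synthesis genes 32 were lower and none higher (median -0.82, 18 and 2 relative to the median gene, 16 and 10 after median-ratio scaling), with fatty acid synthase Fasn at -1.24 ± 0.08. Of 25 glycolysis genes 19 were lower and 1 higher (median -0.64, 8 and 5 relative), and 5 were lower and 9 higher after median-ratio scaling. Of 70 ubiquitin E2 and USP genes 53 were lower and 1 higher (median -0.64, 30 and 9 relative, 27 and 16 after median-ratio scaling), with Ube2c, the E2 enzyme of the anaphase-promoting complex, at -1.65 ± 0.09. Of 45 Rab GTPase genes 26 were lower and 3 higher (median -0.43, 17 and 8 relative, 15 and 13 after median-ratio scaling), and 1 was higher without WT 4 h replicate 1 or WT 8 h replicate 2. Of 18 genes for AU-rich element binding proteins 13 were lower and none higher (median -0.50, 6 and 3 relative), with Hnrnpd, which promotes decay of such messages, at -1.70 ± 0.10, and after median-ratio scaling 5 were lower and 7 higher. Of 34 endoplasmic reticulum folding genes 17 were lower and 4 higher (median -0.27, 6 and 16 relative, 5 and 22 after median-ratio scaling), and 1 was higher without WT 4 h replicate 1, WT 4 h replicate 2 or WT 8 h replicate 2. Xbp1, a factor of the unfolded protein response, fell by 0.98 ± 0.09.

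Of 54 interferon-stimulated genes 17 were lower and 7 higher (median -0.18, 3 and 21 relative, 2 and 33 after median-ratio scaling), and 4 were higher without WT 4 h replicate 2. Bst2, the antiviral protein tetherin, rose by 0.87 ± 0.07. Of 27 p53 target genes 10 were lower and none higher (median -0.34, 5 and 7 relative, 3 and 10 after median-ratio scaling), and 1 passed as higher without either KO 4 h library. Of 17 BCL2 family genes 6 were lower and 2 higher (median -0.23, 3 and 7 relative, 2 and 9 after median-ratio scaling), with the cell death gene Bid at -2.10 ± 0.11, and none was higher without WT 4 h replicate 2. Of 30 housekeeping genes often used for scaling 18 were lower and 6 higher (median -0.29, 8 and 13 relative, 6 and 20 after median-ratio scaling), from Tubb5, a beta tubulin, at -1.76 ± 0.08 to Fth1 at 1.32 ± 0.06.

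Sequence features were compared over 7581 coding genes with a mean of at least 5 TPM over the 12 libraries, using transcripts of GENCODE M21 on GRCm38. Their median late change was -0.58. It was less negative with more G and C at the last, or wobble, position of codons. In 5 equal groups of genes from the lowest to the highest content the medians were -0.73, -0.65, -0.55, -0.51 and -0.43. The gap between the lowest and the highest group was -0.30, between -0.37 and -0.23 over the 4 pairings of an 8 h with a 4 h library. In the early step the same groups had -1.19, -0.87, -0.68, -0.53 and -0.53. Genes with transcripts under 600 nt, 115 in number, had a median of 0.19, those from 600 to 1000 nt -0.24 and those from 1000 to 2000 nt -0.53. Under 600 nt the median change in KO cells was -0.07. Over all tested genes with transcripts under 600 nt, the median log2(TPM + 1) of single libraries was 4.57 and 4.46 at 8 h, against 4.21 and 4.54 at 4 h, so the libraries overlapped. Above 2000 nt the median hardly moved, at -0.61, -0.63 and -0.62 for 2000 to 3000, 3000 to 5000 and at least 5000 nt. In the early step it kept falling with length, to -1.38 in the longest class. These values describe these libraries, and genes are not independent replicates.

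**Figure D4:**
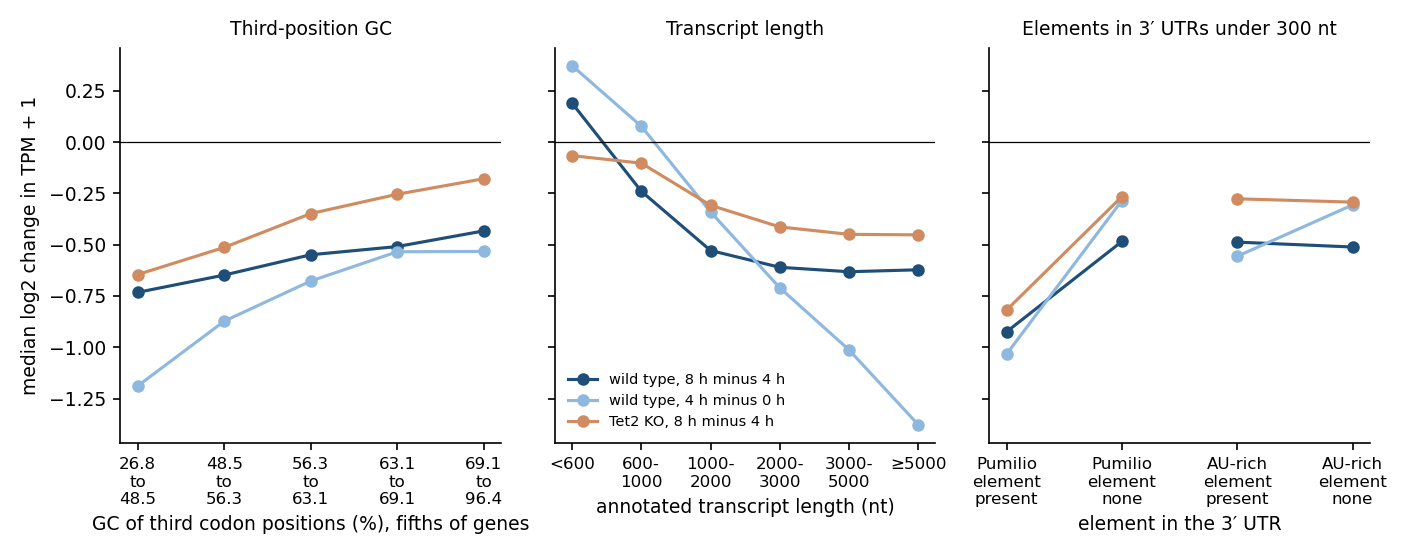
Median log2 change in TPM + 1 by class of gene over 7581 coding genes, for WT cells at 8 h minus 4 h (dark blue), WT cells at 4 h minus 0 h (light blue) and Tet2 KO cells at 8 h minus 4 h (orange). The left panel shows 5 equal groups of genes by GC at the wobble position of codons, the middle panel annotated transcript length and the right panel 3′ UTRs under 300 nt with and without an element. In the late step of WT cells the medians rise with GC, are above 0 only under 600 nt, and are lower with the Pumilio element but not with the AU-rich element.

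The 3′ UTRs were searched on the sense strand for the letters TGTANATA, the element that the decay-promoting Pumilio proteins bind, where N is any base. The element was in 6.02% of 3′ UTRs under 300 nt and in 42.9% of those of at least 1500 nt, so it was compared within classes of length. Under 300 nt, the median late change was -0.92 in 94 genes with the element and -0.48 in 1468 without. The gap of -0.44 ranged from -0.54 to -0.39 over the 4 pairings of libraries. From 300 to 700 nt the medians were -0.69 with and -0.56 without it, from 700 to 1500 nt -0.70 and -0.56, and from 1500 nt -0.61 and -0.59. In the early step the medians under 300 nt were -1.03 with the element and -0.28 without. The AU-rich letters TATTTAT, found in many short-lived immune messages, gave no such gap in the late step. Over all lengths the median was -0.58 in genes with no copy, -0.60 with 1 and -0.54 with 2 or more, beside -0.62, -1.07 and -1.22 in the early step. This element too is more frequent in long 3′ UTRs, and within a class of length the early medians lay closer together: under 300 nt -0.56 with and -0.31 without it, and from 1500 nt -1.22 with and -0.97 without it.

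Of the 15 deepest losses 4 had TGTANATA in the 3′ UTR, a share near the 23.6% of all genes compared. None of the 13 largest gains with an annotated 3′ UTR had it, most of them with a 3′ UTR under 300 nt. The 6 copies are shown with up to 8 bases on each side, since these are the messages the loss was deepest in. Capitals mark the searched letters, and a match is a description of the sequence, not of binding.
Kpna2 first copy: ttataaacTGTACATActctatga
Kpna2 second copy: tcatgtccTGTAAATAaagattaa
Polr2b first copy: cttttttcTGTAAATAataaattt
Polr2b second copy: taaattttTGTAGATAgtc
Top2a: atgtctttTGTAAATAtttaatat
Ccna2: tatatgtgTGTAAATAaagcatgc
On GRCm38 the copies of Kpna2 lie on the minus strand at chr11:106988716-106988739 and chr11:106988649-106988672, in a 3′ UTR of 258 nt. Those of Polr2b lie on the plus strand at chr5:77349289-77349312 and chr5:77349306-77349324, in a 3′ UTR of 155 nt, where the second copy is close to the transcript end. That of Top2a is at chr11:98993008-98993031 and that of Ccna2 at chr3:36564879-36564902, both on the minus strand. The granule genes Prtn3, Mpo and Elane and the tubulins Tubb4b, Tuba4a and Tuba8 had neither element in the annotated 3′ UTR.

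Tet2 KO cells, which share no library with this comparison, showed a late step of the same general shape: over the 11152 genes its change correlated with that of WT cells at a Pearson r of 0.75, a description across genes. Its median was -0.28, with 5812 genes called (52.1%), 4812 lower (43.1%) and 1000 higher (8.97%) at 8 h. The difference of the late changes, KO minus WT, passed for 1387 genes (12.4%), 192 below 0 (1.72%) and 1195 above (10.7%). Relative to the median gene, at 0.13, it passed for 772 (6.92%), 272 below (2.44%) and 500 above (4.48%). The count of 1387 fell to 767 without WT 4 h replicate 1, 820 without WT 4 h replicate 2, 808 without KO 4 h replicate 1, 698 without KO 4 h replicate 2 and 864 without KO 8 h replicate 1. Tet2 itself had 4.32 and 4.52 TPM in KO cells at 8 h and 6.42 and 5.82 at 4 h, below WT cells at each time but not absent, and the gene total does not show which part was deleted. Any other difference between the KO and the WT cells cannot be told apart from the genotype.

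Among genes with a mean of at least 5 TPM over the 8 libraries compared, clone-like and pseudogene symbols left out, Camp was furthest above 0. It had 17.6 and 21.6 TPM in KO cells at 8 h and 17.6 and 14.9 at 4 h, while WT cells had 126 and 120 at 8 h and 344 and 346 at 4 h. The difference of the changes was 1.73 ± 0.22 (limma adjusted p = 0.000988). Igfbp4, a binding protein of insulin-like growth factors, had 807 and 780 TPM in KO cells at 8 h and 650 and 625 at 4 h, while WT cells had 168 and 172 at 8 h and 363 and 353 at 4 h (difference 1.39 ± 0.09). Myl10 (1.64 ± 0.47), Ankle1 (1.53 ± 0.15) and Sytl1 (1.35 ± 0.22) were the others of the 5 furthest above 0 under that limit. The 5 furthest below under it were Rab26os at -3.80 ± 0.61, listed at 0 in both KO libraries at 8 h, and Cox7a1 at -2.56 ± 0.59, Ndufa5 at -2.47 ± 0.47, Spaca9 at -1.90 ± 0.23 and Rps21 at -1.84 ± 0.26. Hist2h4, whose mean is below the limit, stood at -3.65 ± 0.88. The annotated transcripts of the 5 furthest below are short, with 477 nt for Rab26os, 393 for Cox7a1, 875 for Ndufa5, 699 for Spaca9 and 394 for Rps21. This is not particular to them: of the genes furthest above 0, Camp has 758 nt and Myl10 688, while Ankle1 has 2136 and Igfbp4 3831. A link of the difference to length was not tested.

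The azurophil granule genes named here fell in both genotypes at this step. Prtn3 had 62.5 and 58.1 TPM in KO cells at 8 h and 313 and 325 at 4 h, a late change of -2.39, beside -2.98 in WT cells (difference 0.60 ± 0.09, adjusted p = 0.0022). Mpo had 8.50 and 6.67 TPM in KO cells at 8 h and 99.7 and 101.5 at 4 h, and its difference from the WT change did not pass (-0.45 ± 0.16, adjusted p = 0.0972). Elane had 2.33 and 1.51 TPM in KO cells at 8 h and 22.03 and 22.1 at 4 h (difference -0.16 ± 0.17, adjusted p = 0.61). The difference was above 0 in Ctsg (1.08 ± 0.09) and Ms4a3 (0.89 ± 0.08). Mitosis genes fell less in KO cells in 15 of 41 cases and more in 1, with a list median of -1.17 in KO and -1.52 in WT cells. Of the replication genes 23 of 51 fell less in KO cells and none more. Over all tested genes the difference was above 0 in 10.7% and below 0 in 1.72%, with a median of 0.13. These list counts were not taken relative to the median gene, and they were not repeated without single libraries. Lysosomal genes had a median of 0.50 in KO and 0.45 in WT cells, and MHC class II genes one of 0.90 and 0.92, with none of the 11 class II genes past the threshold for a difference.

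**Figure D5:**
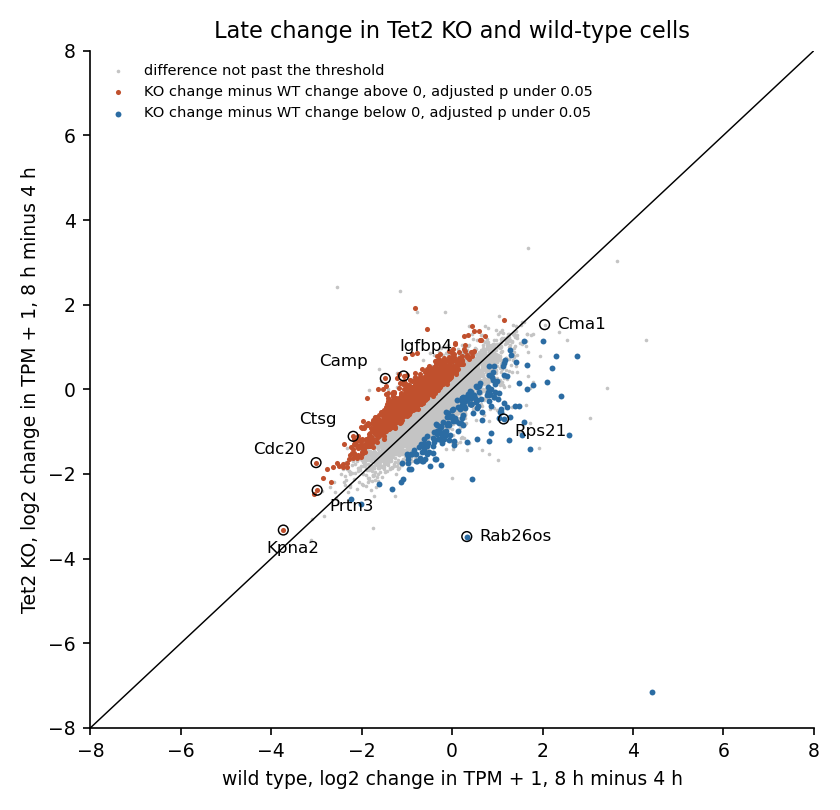
Late log2 change in TPM + 1, 8 h minus 4 h, in Tet2 KO cells (vertical axis) against WT cells (horizontal axis) over 11152 genes, with the line of equal change. Red dots are the 1195 genes whose KO minus WT difference was above 0 and blue dots the 192 below 0 at an adjusted p under 0.05, grey dots did not pass, and circles mark labelled genes. Camp and Igfbp4 lie below 0 for WT and above 0 for KO cells. Kpna2 and Prtn3 lie at the low end of both, above the line, with KO minus WT differences of 0.41 and 0.60 that passed.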

How the data were processed

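RNA of 12 samples of mouse cells was extracted with TRIzol and made into stranded mRNA libraries, per the labels' protocols. STAR, RSEM and the mm10 build are named in the submitters' processing notes. Versions, annotation and counting strand were not given in the sources used here. The authors deposited 1 table of TPM for all libraries. The read depth is unknown, so low values carry no interval. All 12 value columns were matched to samples by name, with 0 left unused.

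Tested were genes that reached 1 TPM in 2 or more of the 12 libraries, on log2(TPM + 1), with a pseudocount of 1, by limma 3.58.1 in R 4.3.3. One fit gave each of the 6 groups its own mean, with empirical Bayes moderation, a mean-variance trend and Benjamini-Hochberg adjustment over all genes at a threshold of 0.05. A fold on this scale understates the change of low genes. Values relative to the median gene subtract the median log2 change. The steps were tested on simulated data.

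Members and gene lists were chosen with earlier results of these data known. The genes named are the 15 largest log2 changes each way past the threshold with a mean of at least 5 TPM over the 4 libraries and groups that do not overlap, the 5 largest each way of the other contrasts with that mean over the libraries of each contrast (the 6 WT libraries, or the 8 at 4 h and 8 h), members from the 4 smallest p-values of each list, and Tet2, Tspan13, Cxcr4 and Ybx1. Clone-like and pseudogene symbols were left out, as were 27 names turned into dates, 19 of them tested. Lyz2, Ptprc, Kit, Il4, Tubb4a and the tubulin and chaperonin families were chosen after their values were seen.

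Sequence features came from GENCODE M21 transcripts on GRCm38, the assembly of mm10, with 97.3% of tested genes matched by symbol. The authors' annotation may differ. The same replicate number did not pair libraries: over 15 pairs of groups the correlation of same-numbered deviations lay between -0.0834 and 0.0505. Alternatives were other pseudocounts and filters, median-ratio scaling, limma without the trend, a replicate block, a fit of the contrast's own groups and omission of each library in turn. Removal of a trend on transcript length and a limit to transcripts of at least 1000 nt were added after seeing the data.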

Additional observations from a re-analysis of the deposited data

Results flagged for a closer look

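The late change differed between Tet2 KO and WT cells, by the test of the difference itself, for 1387 genes (12.4% of those tested). It did so for 56 of 111 named genes checked. Many of the 111 were chosen for large changes or small p-values, some of them in this same contrast, so their share is raised by the choice. Values are KO minus WT on the log2 scale. Groups of 2 libraries were too small for a check of single libraries that stand apart.

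Below 0 were 15 named genes. Noncoding, histone and short messages were Rab26os at -3.80, Hist2h4 at -3.65, Cox7a1 at -2.56, Ndufa5 at -2.47, Spaca9 at -1.90 and Rps21 at -1.84. Chemokines and secreted proteins were Ccl17 at -1.97, Ccl12 at -1.50, Wfdc17 at -0.88 and Pf4 at -0.76. Mast cell and surface genes were Fcer1a at -1.73, Mcpt4 at -1.67, Fcer1g at -0.50 and Ly6a at -0.44, and the chaperone gene Hspa8 stood at -0.36. In KO cells Fcer1a had 0 and 0.09 TPM at 4 h, then 0.36 and 0.59 at 8 h. Mcpt4 had 0.2 and 0.28 TPM there, then 0.48 and 0.21, and Ccl17 had 0 and 0.29, then 1.26 and 0.7. At such levels log2(TPM + 1) compresses any change, so the differences of Fcer1a, Mcpt4 and Ccl17 are uncertain.

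Above 0 were 41 named genes. Granule and myeloid genes were Camp at 1.73, Ctsg at 1.08, Ms4a3 at 0.89, Csf3r at 0.77, Cxcr2 at 0.65, Prtn3 at 0.60 and Myb at 0.54. Thy1 stood at 1.06 and Hmgb3 at 1.06. The genes furthest above 0 besides Camp were Myl10 at 1.64, Ankle1 at 1.53, Igfbp4 at 1.39 and Sytl1 at 1.35.

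Genes of mitosis and replication were Cdc20 at 1.28, Cdca8 at 1.00, Mcm6 at 0.87, Top2a at 0.79, Dnmt1 at 0.73, Gmnn at 0.69, Ube2c at 0.66, Cdk1 at 0.47 and Kpna2 at 0.41, with the tubulins Tuba4a at 0.75 and Tubb5 at 0.40. Genes of RNA and its processing were Alyref at 1.09, Polr2b at 0.87, Hnrnpd at 0.72, Ybx1 at 0.67, Exosc8 at 0.58, Rbmxl1 at 0.50, Malat1 at 0.50 and Nsun2 at 0.45. Genes of translation, the nucleolus and folding were Nolc1 at 0.69, Eif4a1 at 0.65, Cct4 at 0.61, Rpl3 at 0.55, Npm1 at 0.51, Eif4a3 at 0.48 and Rps6 at 0.39. Fasn stood at 0.95 and Vapa at 0.58.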

How the results depend on the processing

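The direction of the shift over all genes rests on the scaling. Median-ratio scaling put the median at 0.0585, with 2506 genes lower and 3219 higher at 8 h, and kept 3274 of the 6884 calls in the same direction. Under it Ybx1 stood at 0.45, Kit at 0.33, Tspan13 at 0.25 and Rps6 at 0.0304, and KO minus WT gave 534 genes below and 788 above 0. Without a filter, 8421 genes differed from the median gene (4626 lower, 3795 higher), and KO minus WT gave 123 below 0. Without limma's trend KO minus WT gave 834 (125 below, 709 above).

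Leaving out 1 library gave 5949 to 7000 calls for 8 h against 4 h, 3988 to 5500 relative to the median gene, 3822 to 5612 for late minus early, and 698 to 1673 for KO minus WT (98 to 227 below, 600 to 1446 above). Pet117 then ran from -0.84 to 3.35 and Tspan13 from -0.60 to 0.13, each by the 8 h library left out. The replicate block, on numbers that do not pair libraries, gave 6843 calls against 6884. The causes of these shifts were not tested.

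The read depth is unknown, 1416 tested genes had a WT mean under 1 TPM at 4 h, and values are shares, so absolute decay was not measured.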
